A study of Mus musculus with 2 samples.

Results

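The phase II conjugation enzymes of the liver were examined as all gene rows whose symbol begins as a UDP-glucuronosyltransferase (Ugt1a, Ugt2a, Ugt2b, Ugt3a), a sulfotransferase (Sult) or a glutathione S-transferase (Gst of the alpha, kappa, mu, omega, pi, theta and zeta families, and the membrane-bound Mgst). The rule gave 67 of 32285 genes, of which 21 were Ugt, 21 Sult and 25 Gst. They were measured by spatial transcriptomics (10x Genomics Visium), in which a frozen liver section of 10 µm lies on a slide of barcoded spots and each captured RNA molecule is counted once by its unique molecular identifier (UMI). One section came from a mouse of the NCD group, the control diet, and one from a mouse of the HFD group. All were male C57BL/6J mice bought at 5 weeks of age. The HFD mouse was fed a 60% high-fat diet for 14 weeks. In the 8 weeks that followed, both groups received distilled water by mouth, as controls for oral treatments whose animals were not analysed here. Whether the high-fat diet went on in those 8 weeks is not stated.

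Each diet was represented by 1 section of 1 mouse, so there was no replicate and no test between diets was made. Diet, animal, section and any difference between slides cannot be told apart. Whether the sections shared a slide is not stated. Levels are given as CPM, the UMIs of a gene per 1000000 UMIs of the section, with 95% Poisson intervals, and differences as the log2 ratio of HFD over NCD with 95% exact binomial intervals. Both kinds of interval cover counting error only. A spot covers several cells, and fewer cells of a type cannot be told apart from less RNA per cell. UMIs were read from transcript ends and are not divided by transcript length.

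Conjugation enzymes attach a polar group to drugs, hormones, bile acids and reactive intermediates, which makes them easier to excrete. Ugt enzymes sit in the endoplasmic reticulum and transfer glucuronic acid from UDP-glucuronic acid. Sult enzymes in the cytosol transfer sulfate from the donor PAPS, and Gst enzymes couple reactive molecules to glutathione. Hepatocytes near the central vein are known to carry much of the liver's drug metabolism, and hepatocytes near the portal tract much of its urea and glucose synthesis.

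The NCD section held 3692 spots and 29037988 UMIs (median 4188 per spot), and the HFD section 3594 spots and 72118803 UMIs (median 18549 per spot). The labels name an immune cell type, but the hepatocyte genes Alb, Apoa1, Ttr, Serpina1a and Fgb together made up 80522 CPM in NCD and 86713 in HFD, against 9.47 and 7.27 for 5 T cell genes. Both mice were male by their RNA, since Xist had 1 and 2 UMIs, Ddx3y 27.3 and 25.3 CPM, Eif2s3y 30.6 and 30.0, Kdm5d 3.37 and 3.98, and Uty 4.68 and 4.78. The spots of the 2 sections shared 3173 barcodes, which on this platform name positions and not cells. In the NCD sample 19.1% of all UMIs lay on spots off the tissue, and in the HFD sample 2.93%. The median log2 ratio of HFD over NCD over the 8417 genes that averaged 5 CPM or more was 0.20, so that the typical gene was slightly higher in HFD, and differences are also given relative to that median where it alters the reading.

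All 67 genes together took 1.52% of the UMIs in NCD and 1.22% in HFD. Gst genes were the most abundant class, at 11365 CPM in NCD (95% interval 11326 to 11404) and 9753 in HFD (9730 to 9775). Ugt genes summed to 2712 in NCD (2693 to 2731) and 1863 in HFD (1853 to 1873), and Sult genes to 1135 (1123 to 1148) and 628 (622 to 634). The log2 ratio of HFD over NCD was -0.85 for Sult (-0.88 to -0.83), -0.54 for Ugt (-0.55 to -0.53) and -0.22 for Gst (-0.23 to -0.21). The Gst value rested on 1 gene, Mgst1, since the other 24 Gst genes summed to 4454 in NCD and 4606 in HFD, a log2 ratio of 0.05 (0.04 to 0.06) that is -0.15 relative to the median gene. Sult and Ugt were lower in HFD in each of the 5 zones of the lobule described below.

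Of the 67 genes, 34 reached a mean of 5 CPM over both sections and were compared singly. Of the other 33, 23 had at least 1 UMI and 10 had none in either section. Gsta1 and Sult1c2 reached that mean only through the HFD section, where they were the higher. Of the 34 compared genes, 5 were at least 1.5-fold higher in HFD (14.7%), against 20.2% of all 8417 genes. In the other direction 9 were at least 1.5-fold lower (26.5%), against 4.44% of all genes. Their median log2 ratio was -0.14, beside 0.20 for all genes, and 26 of the 34 lay below the median of all genes.

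**Figure D1:**
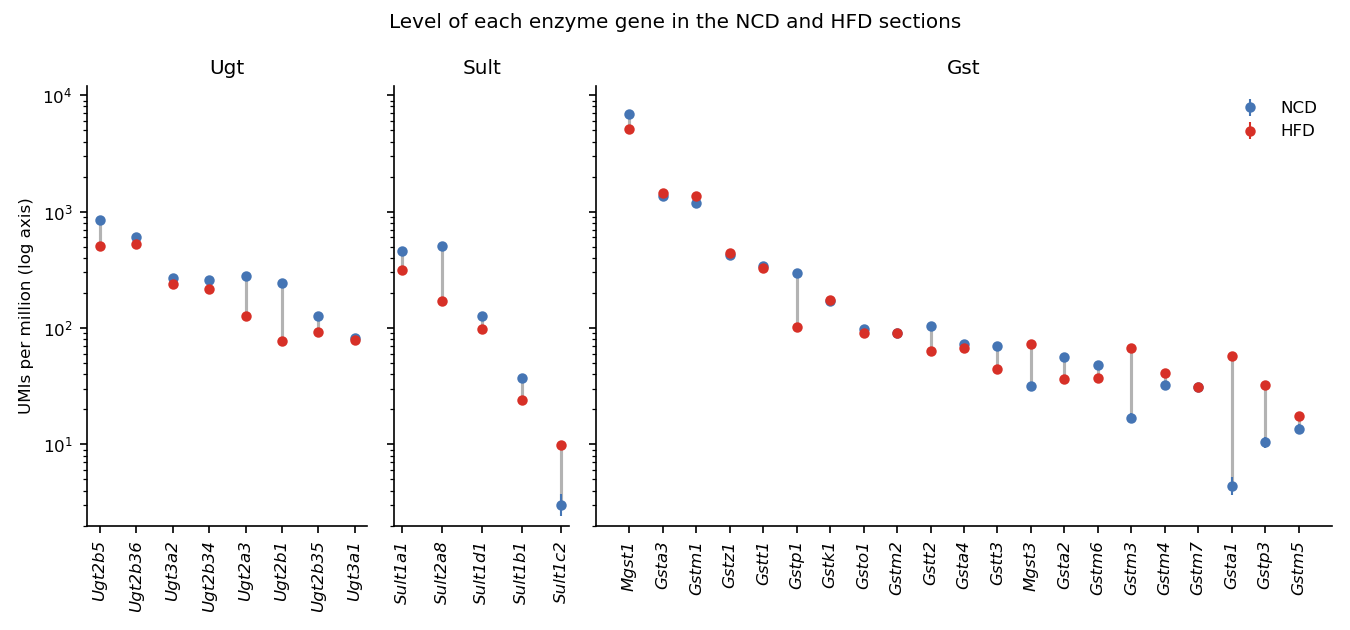
CPM (log axis) of each of the 34 compared genes in the NCD section (blue) and the HFD section (red), by class and in order of mean level, with 95% Poisson intervals that are mostly smaller than the points. Mgst1 stands highest in both sections at 6911 and 5147, and Gsta1 has the widest gap at 4.37 and 57.0.

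Among the Ugt genes, 8 of 21 were compared, and all 8 had a log2 ratio below 0. Ugt2b5 was the most abundant, with 845 CPM in NCD (834 to 855) and 503 in HFD (498 to 509), a log2 ratio of -0.75. Ugt2b36 followed at 604 and 522 (log2 ratio -0.21). The farthest apart was Ugt2b1, at 241 in NCD (236 to 247) and 77.6 in HFD (75.6 to 79.7), 3.11-fold lower in HFD. Ugt2a3 was 2.19-fold lower, at 278 (272 to 285) and 127 (125 to 130). These 3 genes, Ugt2b5, Ugt2b1 and Ugt2a3, were the Ugt genes past 1.5-fold. Ugt2b34 (260 and 215), Ugt2b35 (126 and 92.9), Ugt3a2 (267 and 240) and Ugt3a1 (81.7 and 79.3) were closer between the sections, at log2 ratios of -0.27, -0.44, -0.15 and -0.04. The interval of Ugt3a1 (-0.11 to 0.03) included 0. The Ugt3 family is known to use other sugar nucleotides than UDP-glucuronic acid, and as a pair it stood at 349 and 320 CPM, closer between the sections than the 10 Ugt2 genes at 2356 and 1539.

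The Ugt1a family includes Ugt1a1, the enzyme that conjugates bilirubin, yet its 9 genes together had 219 UMIs in NCD and 303 in HFD, or 7.54 and 4.2 CPM. Ugt1a7c had 145 and 194 UMIs, Ugt1a6a 60 and 77, Ugt1a1 8 and 19, Ugt1a5 2 and 12, Ugt1a6b 3 and 1, and Ugt1a9 1 and 0, whereas Ugt1a2, Ugt1a8 and Ugt1a10 had none. The Ugt1a genes lie on chromosome 1 and join a different first exon to shared later exons. In the GENCODE M21 annotation of GRCm38 (the mm10 build), 7 transcripts of 6 of these genes ended in the same exon at chr1:88218127-88218997. When the last 400 bases of each coding transcript were split into windows of 90 bases, none of the windows of Ugt1a1, Ugt1a2, Ugt1a5, Ugt1a6a, Ugt1a6b, Ugt1a8 or Ugt1a9 was free of a match to another gene, 1.88% were for Ugt1a10 and 50% for Ugt1a7c. Space Ranger counts a read only where it belongs to a single gene. The Ugt1a values are therefore not a measure of how much Ugt1a RNA the sections held, and the same holds for Ugt2a1 and Ugt2a2, whose ends were shared in full and which had no UMI.

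Sult genes gave the lowest class ratio, and it came from few genes, since 5 of 21 were compared. Sult2a8 weighed most in it, at a log2 ratio of -1.56. The class ratio without Sult2a8 was not computed, so the rank of Sult below Ugt may rest on that gene. Sult2a8, which sulfates bile acids, was the most abundant Sult gene in NCD at 503 CPM (495 to 512) and stood at 171 in HFD (168 to 174), 2.95-fold lower. Sult1a1, the main phenol sulfotransferase, had 455 (447 to 463) and 312 (308 to 316), a log2 ratio of -0.55 that did not reach 1.5-fold. Sult1d1 had 127 and 98.2 (log2 ratio -0.37). Sult1b1, which acts on thyroid hormones, had 37.3 and 24.2 (log2 ratio -0.62), and its ratio was -0.35 when spots were drawn down to 1000 UMIs, -0.53 after subtraction of the off-tissue profile and -0.54 within lobule bins, all short of 1.5-fold. Sult1c2 went the other way, at 3.03 CPM in NCD (2.43 to 3.73) and 9.79 in HFD (9.08 to 10.5), 3.23-fold higher.

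Below the minimum, 12 Sult genes had a UMI in at least 1 section, led by Sult2a7 with 137 in NCD and 279 in HFD. Sult1e1, the estrogen sulfotransferase, had 15 UMIs in NCD and 276 in HFD, or 0.517 and 3.83 CPM, a log2 ratio of 2.89 (2.14 to 3.75). It was singled out after its values were seen. Sult2a1 and Sult2a2, hydroxysteroid sulfotransferases that are more abundant in female than in male mouse liver, had no UMI in NCD and 16 each in HFD, which is at least 2.15-fold higher against a floor of 3 counts. Sult2a3 had 0 and 8 UMIs (at least 1.07-fold). No UMI was counted in either section for Sult1c1, Sult2a4, Sult2a6 and Sult6b2, nor for Gstt4, which allows up to 0.103 CPM in NCD and 0.0416 in HFD.

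Of 21 compared Gst genes, 4 (19.0%) were at least 1.5-fold higher in HFD, near the 20.2% of all genes, and 4 (19.0%) at least 1.5-fold lower, against 4.44%. Mgst1, a membrane-bound transferase and peroxidase, had 6911 CPM in NCD (6881 to 6941) and 5147 in HFD (5130 to 5163), a log2 ratio of -0.43. With the much lower Mgst2 and Mgst3 it held 45.6% of the enzyme UMIs in NCD and 42.6% in HFD. Gsta3 had 1367 and 1450, Gstm1 1177 and 1364, and Gstz1, an enzyme of tyrosine breakdown, 421 and 443. Their log2 ratios of 0.08, 0.21 and 0.07 became -0.12, 0.01 and -0.13 relative to the median gene, so that the direction of Gsta3 and Gstz1 depended on the scale. Gstt1 (340 and 328), the mitochondrial and peroxisomal Gstk1 (171 and 173), Gsto1 (97.8 and 89.9), Gsta4, which clears the lipid peroxidation product 4-hydroxynonenal (72.4 and 67.4), and Gstm2 (90.9 and 90.5) had log2 ratios between -0.12 and 0.01, all of them negative relative to the median gene.

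The gene that differed most was Gsta1, an alpha-class enzyme known to be inducible. It had 127 UMIs in NCD and 4113 in HFD, or 4.37 CPM (3.65 to 5.20) and 57.0 (55.3 to 58.8), 13-fold higher in HFD, with a log2 ratio of 3.70 (3.45 to 3.97). After spots were drawn down to 1000 UMIs each, 0.631% of NCD spots and 4.99% of HFD spots held a Gsta1 UMI, beside 99.8% and 99.1% for Mgst1. Its neighbour Gsta2 went the other way, at 56.8 (54.1 to 59.6) and 36.5 (35.1 to 37.9), 1.56-fold lower. Both genes lie on chromosome 9, Gsta1 at chr9:78230656-78242684 and Gsta2 at chr9:78331018-78355788. Their ends are partly alike, since 29.3% of the end windows of Gsta1 and 81.7% of those of Gsta2 matched no other gene, so part of the reads of either could not be counted. The predicted gene Gm3776, which shares end windows with Gsta1, had 31 and 953 UMIs, a log2 ratio of 3.63 (3.11 to 4.2).

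The 250 bases before the start of Gsta1 (chr9:78230419-78230668, plus strand) and Gsta2 (chr9:78347146-78347395, minus strand) are shown because these neighbouring copies differed in opposite directions, and those of Gsta3 (chr1:21240335-21240584, plus strand) because it was the most abundant alpha-class gene. They are RefSeq starts on GRCm38.p6, written 5′ to 3′ on the strand of the gene, and capitals mark TGACNNNGC, the core of the antioxidant response element to which NRF2 binds, and GCGTG, the core to which the aryl hydrocarbon receptor binds, on either strand.
Gsta1: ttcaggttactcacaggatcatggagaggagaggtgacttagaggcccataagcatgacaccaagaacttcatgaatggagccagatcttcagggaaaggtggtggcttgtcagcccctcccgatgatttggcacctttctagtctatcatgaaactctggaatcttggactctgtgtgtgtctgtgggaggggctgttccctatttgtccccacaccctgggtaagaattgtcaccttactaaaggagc
Gsta2: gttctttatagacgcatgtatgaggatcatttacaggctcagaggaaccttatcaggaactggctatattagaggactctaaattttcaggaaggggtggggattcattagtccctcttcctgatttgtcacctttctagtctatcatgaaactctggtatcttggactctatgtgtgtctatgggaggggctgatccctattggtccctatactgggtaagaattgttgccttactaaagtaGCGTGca
Gsta3: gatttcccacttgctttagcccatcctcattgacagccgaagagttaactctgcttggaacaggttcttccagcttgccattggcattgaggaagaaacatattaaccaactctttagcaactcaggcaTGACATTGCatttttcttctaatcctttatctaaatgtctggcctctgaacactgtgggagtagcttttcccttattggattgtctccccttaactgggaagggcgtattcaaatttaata

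Gsta1 held neither motif in this window and Gsta2 held GCGTG, while Gsta3 held TGACNNNGC. The Gsta1 and Gsta2 windows shared an unbroken run of 29 bases. The Gsta2 window lies inside the GENCODE span of that gene (chr9:78331018-78355788), since its RefSeq start differs from the outermost GENCODE start. The bases before that GENCODE start were not examined. Over all RefSeq starts, 10.2% of such windows held TGACNNNGC and 28.2% held GCGTG. Of the 71 windows found for 59 of the 67 enzyme genes, 5.63% held the first and 16.9% the second. The search covered these windows and no others.

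Besides Gsta1, the Gst genes at least 1.5-fold higher in HFD were Gstm3, Gstp3 and Mgst3. Gstm3, a mu-class enzyme, had 16.8 CPM in NCD (15.4 to 18.4) and 67.1 in HFD (65.2 to 69.0), 3.98-fold higher, and all its end windows were its own. Gstp3 had 10.4 (9.26 to 11.6) and 32.4 (31.1 to 33.8), 3.12-fold higher. Mgst3, a membrane-bound peroxidase, had 31.5 (29.5 to 33.6) and 73.5 (71.5 to 75.5), 2.33-fold higher. These 3 genes and Gsta1 were low in NCD, with no value above 31.5 CPM over the whole section. Each was higher in HFD in all 5 zones of the lobule.

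The Gst genes at least 1.5-fold lower in HFD were Gstp1, Gstt2, Gstt3 and Gsta2. Gstp1, the main pi-class enzyme, had 294 CPM in NCD (288 to 301) and 101 in HFD (99.1 to 104), 2.90-fold lower. Its close copy Gstp2 had 55 and 28 UMIs, a log2 ratio of -2.29 (-3.0 to -1.6), and since 31.9% of Gstp1 end windows and 43.5% of Gstp2 end windows matched no other gene, the pair cannot be fully separated. Gstp3, all of whose windows were its own, was the pi-class gene that was higher in HFD. Gstt2 had 104 and 63.3, and Gstt3 70.2 and 44.1, while the third compared theta gene, Gstt1, differed little. By family, the pi class took 6.93% of non-membrane Gst UMIs in NCD and 2.96% in HFD, the mu class 31.9% and 36.3%, and the alpha class 33.9% and 35.5%. Of the remaining mu genes, Gstm4 (32.6 and 40.7), Gstm5 (13.5 and 17.5), Gstm6 (47.9 and 36.8) and Gstm7 (31.3 and 30.8) had log2 ratios between -0.38 and 0.38.

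**Figure D2:**
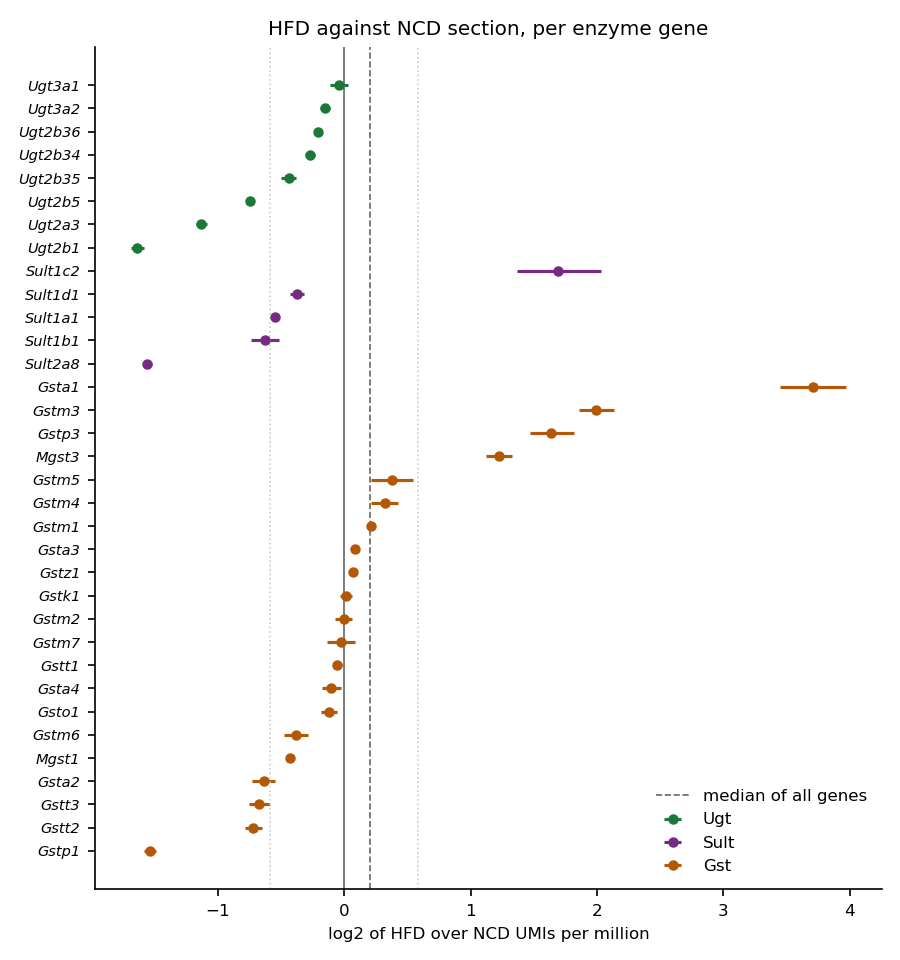
Log2 ratio of HFD over NCD CPM of the 34 compared genes by class, with 95% counting intervals, a solid line at 0, a dashed line at the median of all genes (0.20) and dotted lines at 1.5-fold. All 8 Ugt genes lie left of 0, Sult1c2 is alone among Sult genes on the right, and Gst genes spread from -1.54 (Gstp1) to 3.70 (Gsta1).

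Many of these genes lie in clusters. The rule took genes by family name, so the clustering is not independent of the selection. The Ugt2 genes and 3 Sult1 genes fill a stretch of chromosome 5 (chr5:86889767-87591594) in the order Ugt2b34, Ugt2b1, Ugt2b35, Ugt2b36, Ugt2b5, Ugt2b37, Ugt2a3, Ugt2b38, Ugt2a2, Ugt2a1, Sult1b1, Sult1d1 and Sult1e1. All 8 compared genes there had a lower value in HFD, with log2 ratios from -1.64 to -0.21, under the main scale and under each of 7 other ways of scaling or selecting spots. Of these 8, 6 were Ugt2 genes already counted above among the Ugt genes with a log2 ratio below 0. Neighbours differed in size, since Ugt2b1 at -1.64 lay between Ugt2b34 at -0.27 and Ugt2b35 at -0.44. At the far end, Sult1e1 at 2.89 was next to Sult1d1 at -0.37. Ugt2b38, also below the minimum and chosen after its values were seen, had 37 UMIs in NCD and 3 in HFD (log2 ratio -4.94, -7.28 to -3.28), and Ugt2b37 had 12 and 61 (1.03, 0.13 to 2.06). The 7 Gstm genes lie side by side on chromosome 3, from Gstm5 at chr3:107895821-107898686 to Gstm4 at chr3:108040408-108044894. There 4 had a value above 0 and 3 below, or 2 below under 5 of the 7 other settings, and Gstm3 at 1.99 stood between Gstm6 at -0.38 and Gstm2 at -0.01.

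**Figure D3:**
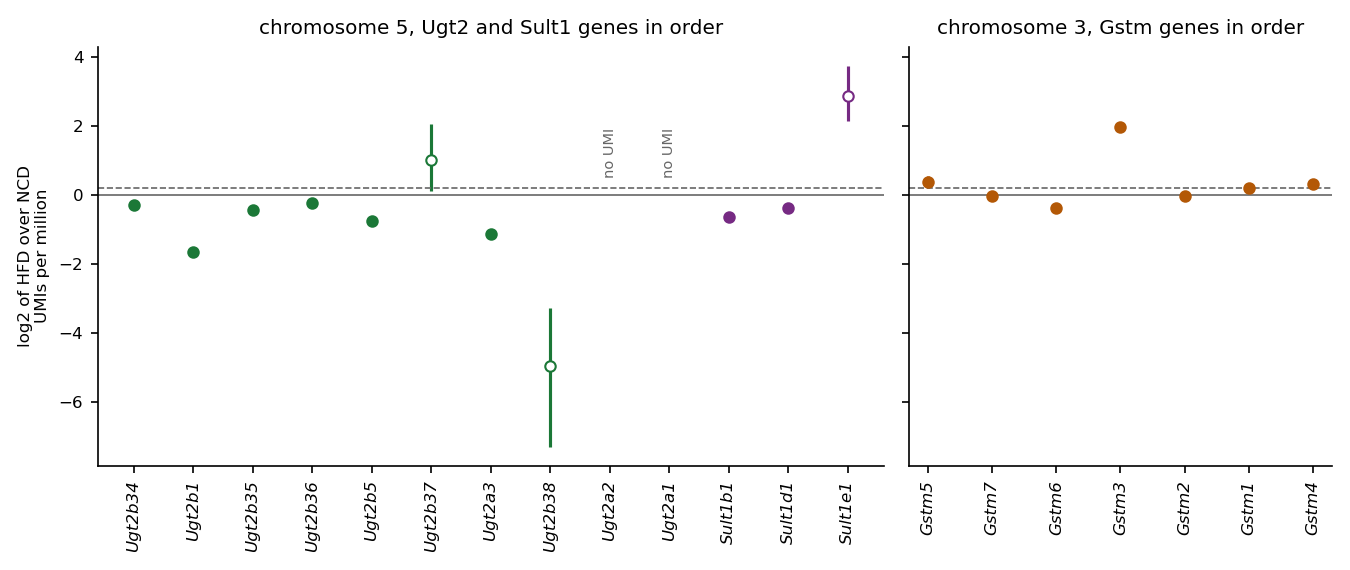
Log2 ratio of HFD over NCD of the 13 genes of the chromosome 5 cluster and the 7 Gstm genes of chromosome 3, in their order along the chromosome and not to scale, with 95% counting intervals. Filled points reached the minimum level and open points did not. On chromosome 5 the 8 filled points all lie below 0, and on chromosome 3 Gstm3 stands apart at 1.99.

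To place the spots along the lobule, each spot with at least 1000 UMIs (2852 in NCD, 3590 in HFD) was scored by 8 pericentral and 8 periportal landmark genes, none of them an enzyme of the 3 classes, and the spots of each section were split into 5 bins of equal size. Bin 1 was the most pericentral and bin 5 the most periportal. The order is relative within a section, and 7 of the 8 pericentral landmarks were at least 1.5-fold lower in HFD. Held-out genes followed the order, since the pericentral gene Cyp2a5 had a log2 ratio of bin 1 over bin 5 of 3.85 in NCD and 3.71 in HFD, and the periportal gene Aldh1b1 one of -2.95 and -2.54. Spots of bin 5 were the shallowest in NCD (median 4409 UMIs) and the deepest in HFD (27192), and the part of this in the values below was tested only by drawing spots down to 1 depth.

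As sums, all 3 classes were higher near the central vein in both sections. In NCD the log2 ratio of bin 1 over bin 5 was 0.53 for Ugt (0.49 to 0.56), 0.61 for Sult (0.56 to 0.67) and 0.61 for Gst (0.60 to 0.63), beside a median of 0.17 over all genes. In HFD it was 0.19 for Ugt (0.17 to 0.22), 0.19 for Sult (0.15 to 0.23) and 0.64 for Gst (0.63 to 0.65), beside a median of 0.14. Ugt genes thus went from 3218 CPM in bin 1 to 2233 in bin 5 of NCD, and from 2008 to 1757 in HFD. Sult genes went from 1382 to 904 in NCD and from 688 to 604 in HFD. Of the 5 compared Sult genes, 4 had a ratio above 0 in NCD but 2 in HFD, where their median was -0.02. The Sult sum of HFD leaned on Sult2a8, which went from 231 in bin 1 to 89.6 in bin 5, while Sult1a1 went from 312 to 370. Gst genes went from 13545 to 8849 in NCD and from 11977 to 7686 in HFD.

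In NCD, 16 of the 34 compared genes (47.1%) were at least 1.5-fold higher in bin 1 than in bin 5, against 13.8% of all genes, and 3 (8.82%) were at least 1.5-fold higher in bin 5, against 3.93%. In HFD, 9 (26.5%) were at least 1.5-fold higher in bin 1, against 6.65% of all genes, and 2 (5.88%) in bin 5, against 2.61%. With spots drawn down to 1000 UMIs, 14 of 34 genes in NCD were at least 1.5-fold pericentral, against 23.3% of all genes. In HFD 7 of 34 were, against 21.3%. Drawing down also raised the share of all genes at least 1.5-fold periportal in HFD, from 2.61% to 12%. With so few counts per gene, ratios pass 1.5-fold in both directions, so this setting cannot decide whether the excess in HFD depends on depth. Among spots with at least 3000 UMIs, 9 of 34 genes were pericentral in HFD, against 6.67%. Under the main setting, the 9 genes of HFD were all among the 16 of NCD. They were Gstm1, Gstm2, Gstm3, Gstm4, Gstm6, Gsta3, Mgst1, Sult2a8 and Ugt2b34, of which Gstm4, Gsta3, Mgst1 and Ugt2b34 dropped under 1.5-fold in HFD under at least 1 other setting. Gsta1 and Gsta2 were the periportal genes of both sections, and Gsta2 dropped under 1.5-fold in both under some settings.

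Gstm2 and Gstm3 of the mu class had the highest ratios, while other mu genes ranged down to Gstm5, at -0.06 in NCD and -0.15 in HFD. Gstm2 had 192 CPM in bin 1 and 30.2 in bin 5 of NCD, and 211 and 32.1 in HFD, log2 ratios of 2.67 (2.40 to 2.94) and 2.71 (2.59 to 2.84). Gstm3 had 38.1 and 6.43 in NCD and 135 and 31.0 in HFD (2.57 and 2.12), a pericentral course in both at a higher level in HFD. With spots drawn down to 1000 UMIs, the ratio of Gstm2 was 2.93 in NCD and 1.69 in HFD and that of Gstm3 4.46 and 1.66. The order of these genes thus depended on the setting. The drawn-down value of Gstm3 in NCD rested on few UMIs, since 1.79% of NCD spots then held one. After them came Ugt2b1 (1.22) and Gstm6 (1.22) in NCD, and Sult2a8 (1.37) and Gstm6 (1.16) in HFD. Mgst1 went from 8000 in bin 1 to 5273 in bin 5 of NCD and from 6085 to 4035 in HFD, the same ratio of 0.60 and 0.59 at different levels.

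Several genes had a lobule course in NCD that was weaker or missing in HFD. Regardless of sign, the ratio of bin 1 over bin 5 was smaller in HFD for 20 of the 34 compared genes. The same held for 61.3% of all genes, so a weaker course in HFD was not particular to these enzymes. Sult1d1 went from 175 in bin 1 through 149, 124 and 95.2 to 79.5 in bin 5 of NCD, but stayed between 95.2 and 102 in all bins of HFD. Its log2 ratio of HFD over NCD was therefore -0.88 in bin 1 and 0.28 in bin 5. Ugt2b1 went from 326 to 140 in NCD and from 84.9 to 66.3 in HFD, and its HFD over NCD ratio ran from -1.94 in bin 1 to -1.08 in bin 5. All 8 Ugt genes had a lower ratio of bin 1 over bin 5 in HFD than in NCD, under the main settings and each of 6 others, beside 54.1% of all genes under the main settings. For Ugt as a class the HFD over NCD ratio ran from -0.68 in bin 1 through -0.57, -0.51 and -0.43 to -0.35 in bin 5, and for Sult from -1.01 to -0.58. When spots were drawn down to 1000 UMIs, the Ugt lobule ratio was 0.46 in NCD and 0.10 in HFD, but that of Sult was 0.36 and 0.34, so the flatter course of Sult in HFD was not seen at equal depth. Of the 21 Gst genes, 10 had the lower ratio in HFD. With 1 section per diet, the difference between sections in these courses was not tested.

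Gstp1 had the reverse course. In NCD it went from 207 CPM in bin 1 through 245, 239 and 336 to 500 in bin 5, a log2 ratio of -1.28 (-1.38 to -1.17), and in HFD it lay between 94.0 and 108 in every bin (-0.07, -0.18 to 0.03). The distance between the sections was accordingly -1.14 in bin 1 and -2.34 in bin 5. In NCD, Gstp1 also moved with depth, at 487 CPM in the 840 spots under 1000 UMIs, 483 in the 745 spots from 1000 to under 3000, and 282 in the 2107 deeper spots, and it was the compared gene whose level off the tissue (119) was farthest below its level on it. Among the deeper spots alone Gstp1 was still 282 in NCD and 101 in HFD. Gsta2 was periportal in both sections, from 44.3 in bin 1 to 71.0 in bin 5 of NCD and from 23.9 to 46.0 in HFD. Gsta1 was highest in bin 4 of both, at 7.52 in NCD on 43 UMIs and 68.5 in HFD on 998, against 2.25 and 36.7 in bin 1. Its log2 ratio of bin 1 over bin 5 was -1.52 (-2.59 to -0.51) in NCD and -0.75 (-0.90 to -0.59) in HFD. Sult1a1 was lowest between the veins, at 554, 408 and 487 in bins 1, 3 and 5 of NCD and 312, 276 and 370 in HFD.

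**Figure D4:**
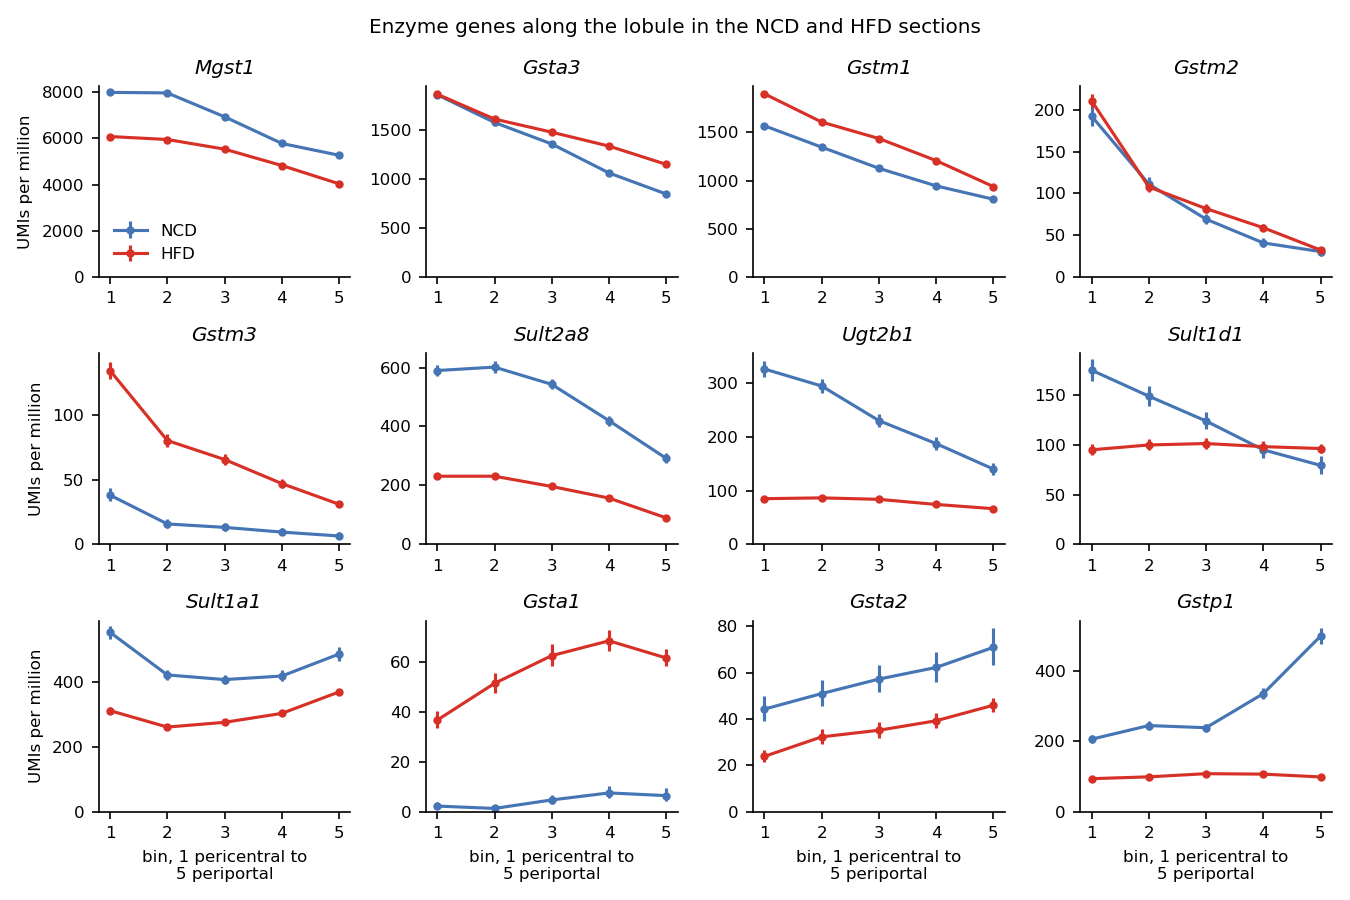
CPM of 12 enzyme genes in 5 bins of spots from pericentral (1) to periportal (5), in the NCD section (blue) and the HFD section (red), with 95% Poisson intervals and each vertical axis starting at 0. Gstm2 differs most between the 2 sections in bin 4, at 40.6 in NCD and 58.7 in HFD. Gstm3 is pericentral in both and Gsta1 highest in bin 4 in both at a higher level in HFD. Sult1d1 and Gstp1 slope in NCD and are flat in HFD.

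**Figure D5:**
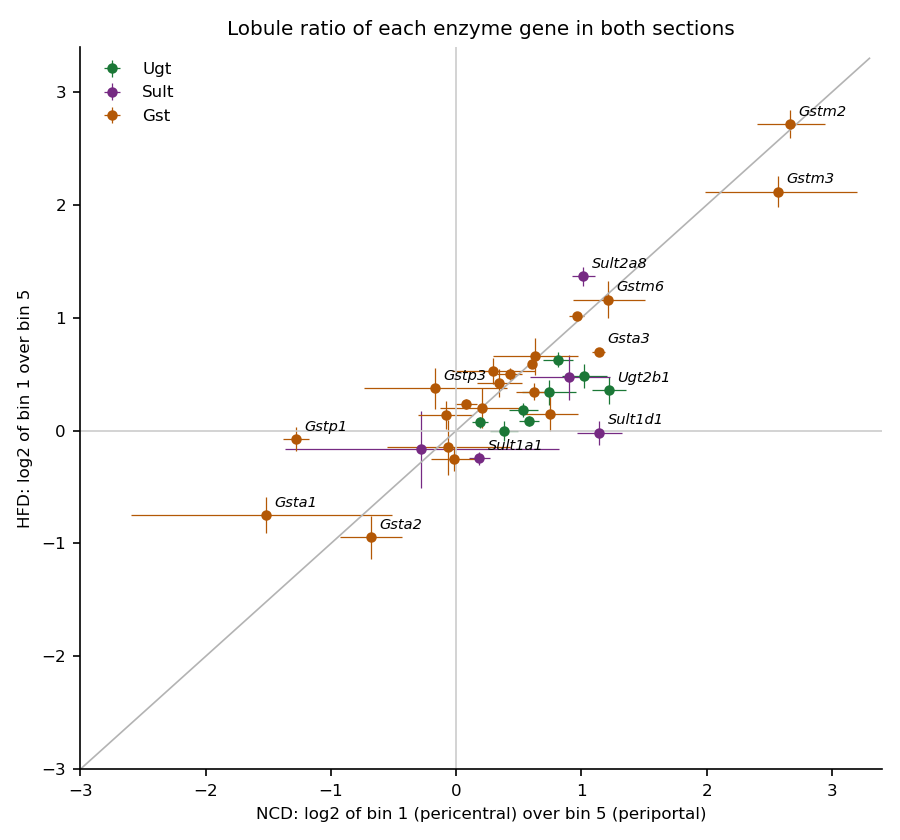
Log2 ratio of bin 1 over bin 5 of each of the 34 compared genes in NCD (horizontal) and HFD (vertical), coloured by class, with 95% counting intervals and a diagonal of equal ratios. Ugt genes lie below the diagonal, Gstm2 and Gstm3 lie far up it, and Gstp1 and Sult1d1 lie farthest from it.

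Sult5a1 and Sult1e1, both below the minimum, had a course along the lobule on few UMIs and were singled out after their values were seen. Sult5a1 had 9 UMIs in bin 1 and 38 in bin 5 of NCD and 31 and 146 in HFD, log2 ratios of -2.54 (-3.77 to -1.47) and -1.59 (-2.20 to -1.03). Sult1e1 had 21 UMIs in bin 1 and 118 in bin 5 of HFD, a log2 ratio of -1.85 (-2.59 to -1.17). Of the 37 Ugt2b38 UMIs of NCD, 23 were in bin 5.

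Marker genes of other cell types also differed between the sections. Summed CPM went from 69.4 to 281 for 5 genes of lipid-associated macrophages, from 227 to 490 for stellate cells and fibroblasts, from 29.2 to 76.1 for smooth muscle, from 6738 to 1292 for red blood cells and from 179 to 28.5 for plasma cells. By single markers, all 5 macrophage genes (3 of them, Gpnmb, Trem2 and Mmp12, under 5 CPM in NCD) and 4 of 5 stellate genes were at least 1.5-fold higher in HFD, and 4 of 5 red blood cell genes and all 4 compared plasma cell genes at least 1.5-fold lower. Sinusoidal endothelium stood at 185 and 245, Kupffer cells at 194 and 185, with Marco (14.1 and 1.54) and Vsig4 (36.5 and 16.9) at least 1.5-fold lower among 4 compared genes, and bile duct cells at 7.40 and 15.8. In the 5% of HFD spots richest in lipid-associated macrophage genes, of which 42.2% lay in bin 5, Gsta1 was higher than in other spots (79.1 and 55.4 CPM) and Sult2a8, Gstm2 and Gstm3 were lower, at log2 ratios of -1.50, -0.88 and -0.73. Leaving out the spots richest in bile duct, smooth muscle and stellate genes kept Gstp1 at least 1.5-fold periportal in NCD. The part of these cell types in the section ratios was not tested.

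Genes that supply or surround these enzymes were compared from fixed lists, by the same 1.5-fold measure, which 20.2% of all genes met as higher in HFD and 4.44% as lower. Pgm2, Papss1, Bcl6, Cyp2b9 and Cyp2b13 were under 5 CPM in NCD and were compared only through their level in HFD, so their part in the counts of higher genes follows from the minimum. Of 6 genes that make or move UDP-glucuronic acid, 4 were higher in HFD and none lower, while the 8 compared Ugt genes had log2 ratios below 0. They were Pgm2 (2.82 and 8.01 CPM), Slc35b1 (29.4 and 53.7), Ugp2, which makes UDP-glucose (216 and 356), and Ugdh, which oxidises it to UDP-glucuronic acid (84.5 and 127). Of 8 compared genes of PAPS supply and sulfate handling, 2 were higher, close to the share of all genes, the sulfate transporter Slc26a1 (47.2 and 105) and Papss1 (4.79 and 9.04), whereas the more abundant PAPS synthase Papss2 had 83.6 and 61.5. Of 9 compared genes of glutathione supply, 3 were higher and 1 lower. The rate-limiting subunit Gclc had 103 and 175, Gss 42.5 and 77.7, Ggct 7.51 and 19.9, and Cth, which makes cysteine, 688 and 379.

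Of 17 compared genes of other conjugation enzymes, 3 were higher, near the share of all genes, and 5 lower, above it, the farthest being Gnmt, a glycine methyltransferase (3890 and 1369), Nat8, which acetylates cysteine conjugates (40.6 and 14.5), and Inmt (449 and 206). Of 8 deconjugating enzymes, 3 were higher and none lower. These were the arylsulfatases Arsa (14.3 and 44.6) and Arsb (15.3 and 28.0) and the β-glucuronidase Gusb (24.3 and 39.8). The list as a sum was lower in HFD, at 2202 and 1798 CPM, with the abundant carboxylesterases Ces3a at 1063 and 781 and Ces1d at 748 and 555. Of 12 compared transporters of conjugates, 2 were lower and none higher. Slco1a1, an uptake transporter of hepatocytes that is abundant in male mice, had 128 CPM in NCD and 0.194 in HFD, a log2 ratio of -9.36 (-10.2 to -8.62), and Slco1a4 had 108 and 50.4. Slco2b1 was next at 59.5 and 87.2.

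Of 16 compared regulators, 2 were higher and none lower. Bcl6, a repressor tied to sex-biased liver genes, had 2.76 and 7.93, Stat5b 18.7 and 28.1, and Nfe2l2, which encodes NRF2, 52.4 and 75.2 (log2 ratio 0.52). NRF2 targets were mixed, with 4 of 8 higher, among them Srxn1 (19.3 and 48.3) and Gclc, and 1 lower, Osgin1 (170 and 54.4). The single compared target of the aryl hydrocarbon receptor, Cyp1a2, also a pericentral landmark, had 467 and 60.4. Of 5 compared targets of the nuclear receptors CAR and PXR, 3 were higher and 2 lower. Cyp2b9 had 2.96 and 166, Cyp2b13 had no UMI in NCD and 20.2 in HFD, at least 196-fold higher against the floor of 3 counts, and Cyp3a11 had 4791 and 1483.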

How the data were processed

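One mouse liver section per diet was profiled with 10x Visium. The authors ran Space Ranger 1.3.1 (build mm10) and deposited filtered and raw matrices of UMI counts per gene and spot, and the file headers of the filtered ones name that version. Other samples of the study were not analysed here. From these, with Python 3.11.15, counts were summed per section or bin and scaled to CPM (UMIs per 1000000). Ratios were formed without a pseudocount and no tests were run. Single genes entered a comparison from an average of 5 CPM, and a fold of 1.5 was used for counts. The landmark score was the mean z-score of log2(1 + UMIs per 10000) of 8 pericentral minus 8 periportal genes, over spots with at least 1000 UMIs. Named genes were members with a mean of at least 50 CPM, the 5 highest and lowest ratios, the 3 most pericentral and periportal, and 3 per pathway list. Others (such as Gstm4, Gstm5, Gstm7, Ugdh, Gclc under glutathione supply, and the carboxylesterases) were named after their values were seen. Members and lists were chosen with earlier results of these data known. GENCODE M21 and RefSeq gave positions and promoters. Ratios, calls and bins were checked on simulated data. Alternatives covered depth, totals, off-tissue RNA, filters, bins and landmarks.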

Additional observations from a re-analysis of the deposited data

Results flagged for a closer look

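Sult1a1 had lobule ratios of opposite sign in the 2 sections. The log2 ratio of bin 1 over bin 5 was 0.19 (0.11 to 0.27) in NCD and -0.25 (-0.30 to -0.19) in HFD, a difference of -0.43, in a gene that was lowest between the veins in both. The difference was not tested, since each diet had 1 section.

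Enzyme genes were also counted on spots outside the tissue, which the comparisons between sections left out except where the off-tissue profile was subtracted. In the NCD sample these spots held 2645 CPM for Ugt, 1088 for Sult and 10090 for Gst. In the HFD sample they held 1277 for Ugt, 480 for Sult and 8197 for Gst. In total, 1300 such spots of the NCD sample held 6870975 UMIs and 1398 of the HFD sample 2177155. Whether these UMIs came from free RNA or from tissue on spots not called as tissue was not tested. Their part in the section ratios was tested only by subtraction.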

How the results depend on the processing

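No paired analysis was possible because each diet had 1 section. No class or gene that was past 1.5-fold changed direction. The Ugt section ratio of -0.54 was -0.51 as a mean per spot, -0.52 with spots drawn down to 1000 UMIs, -0.56 with abundant genes left out of the total, -0.74 relative to the median gene and -0.51 within lobule bins. Sult at -0.85 was -1.06 relative to the median and -0.81 within bins. Gst at -0.22 was -0.24 per spot, -0.24 drawn down, -0.21 in spots with at least 3000 UMIs, -0.24 without abundant genes in the total, -0.29 after subtraction of the off-tissue profile, -0.42 relative to the median and -0.16 within bins. The 9 genes lower in HFD were 4 at 2-fold, against 1.78% of all genes, with 5 higher, against 7.06%. Relative to the median gene they were 12, against 8.47% of all genes, with 5 higher, against 11.9%. Of the genes past 1.5-fold between sections, Sult1b1 alone dropped under it, with spots drawn down, within bins and after the subtraction.

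The NCD lobule ratio of Ugt (0.53) was 0.44 with 3 bins and 0.46 drawn down, of Sult (0.61) 0.52 and 0.36, and of Gst (0.61) 0.56 and 0.52, with 0.64 for a score from summed UMIs and 0.59 without duct, muscle and stellate spots. In HFD, Ugt (0.19) was 0.26 with the summed score and 0.10 drawn down, and Sult (0.19) 0.25 and 0.34. Gst (0.64) was 0.53 with 3 bins, 0.61 without Cyp2e1 and Cyp2f2, 0.69 with the summed score, 0.49 drawn down and 0.62 without those spots. The 9 pericentral genes of HFD were 5 with 3 bins, against 3.99% of all genes. With a minimum of 1 CPM, periportal genes were 5 of 40 in NCD, against 8.37% of all genes, and 4 of 40 in HFD, against 4.56%. The causes were not tested. Low genes such as Sult1e1, Ugt2b38 and Sult5a1 rest on at most 318 UMIs in a section.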
